A study of Mus musculus with 14 samples.

Results

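The Akr1c genes encode a family of cytosolic aldo-keto reductases, and 8 of them were followed here: Akr1c6, Akr1c12, Akr1c13, Akr1c14, Akr1c18, Akr1c19, Akr1c20 and Akr1c21. Members were found by gene symbol in the annotation of the array platform, and 7 of the 8 had a probe set, which gave 9 probe sets of 45141 in all. Akr1c21 had none, Akr1c12 and Akr1c20 had 2 each, and the annotation assigned none of the 9 to a further gene. The family was singled out because Akr1c12 and Akr1c13 were among the probe sets that rose most in bulge cells without G9a, that is, they were chosen by their bulge signals, and the values of that comparison are a description here and carry no test. Earlier results for the other comparisons were also known when the family was picked, and the tests below are not independent support for that choice.

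RNA came from the epidermis of 15-week-old mice with skin in homeostasis. The 4 groups were bulge cells of G9a cKO mice (n = 4), bulge cells of G9a WT mice (n = 3), interfollicular epidermis (IFE) cells of G9a cKO mice (n = 4) and IFE cells of G9a WT mice (n = 3). The bulge is the hair follicle's stem cell compartment, and G9a, the product of Ehmt2, methylates histone H3 at lysine 9. The Cre driver, the time of deletion and the way the cells were isolated are not stated in the material used here, and nothing in it says that replicates came from separate animals, so p-values measure the spread between these samples.

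The unit of every value is the log2 signal of a probe set on 1 array. Array medians lay between 5.76 and 5.84. The Ehmt2 probe set 1460692_PM_at read 5.85 to 6.02 on bulge cKO arrays against 9.51 to 9.69 on bulge WT arrays, and 5.95 to 6.09 on IFE cKO arrays against 9.59 to 9.78 on IFE WT arrays. The other Ehmt2 probe set, 1426888_PM_at, differed by 0.01 in bulge and by 0.08 in IFE, so the label was checked by 1 of 2 probe sets. In WT mice the signals of all 18 stem cell markers of the bulge were higher there than in IFE cells, with a median difference of 3.13. Bulge cKO replicates 2 and 3 stood apart from the other bulge arrays, with scores of -12.8 and -19.5 on the first principal component against -73.3 to -53.3 on the rest. Their bulge marker means were 9.15 and 9.31 against 9.97 to 10.3 on the other bulge arrays. IFE cKO replicates 2 and 3 also stood apart from the other IFE arrays, with scores of 34.6 and 35.3 against 45.5 to 62.5 on the rest, and their bulge marker means were 7.63 and 7.69 against 7.13 to 7.26. Results are also given without these arrays.

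Aldo-keto reductases use NAD(H) or NADP(H) to interconvert carbonyl groups and alcohols, and the Akr1c branch acts on steroids, prostaglandins and xenobiotics. In the mouse the genes lie side by side in 1 cluster. Akr1c18 encodes the 20alpha-hydroxysteroid dehydrogenase that inactivates progesterone in the ovary, Akr1c6 a 17beta-hydroxysteroid dehydrogenase of liver, Akr1c14 a 3alpha-hydroxysteroid dehydrogenase and Akr1c21 a 17alpha-hydroxysteroid dehydrogenase. Akr1c12 and Akr1c13 encode closely related dehydrogenases that act on xenobiotic alcohols and some hydroxysteroids, and are best known from stomach and liver.

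The promoter windows of Akr1c12 and Akr1c13 are shown because these neighbours were the members that rose together. Each window runs from 250 bases before to 50 bases after the gene start and holds 300 bases, as given by RefSeq on GRCm38.p6. Akr1c12 lies at chr13:4279350-4279649 on the minus strand and Akr1c13 at chr13:4190937-4191236 on the plus strand. Capitals mark the bases of each that differ from the other or have no partner within the aligned stretch, and 284 of 297 aligned columns (95.6%) were identical.
Akr1c12: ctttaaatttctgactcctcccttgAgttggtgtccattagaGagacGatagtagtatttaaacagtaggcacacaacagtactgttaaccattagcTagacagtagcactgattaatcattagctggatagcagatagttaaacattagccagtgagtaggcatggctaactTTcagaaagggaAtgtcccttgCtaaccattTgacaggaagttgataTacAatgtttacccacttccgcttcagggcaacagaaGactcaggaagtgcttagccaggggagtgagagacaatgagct
Akr1c13: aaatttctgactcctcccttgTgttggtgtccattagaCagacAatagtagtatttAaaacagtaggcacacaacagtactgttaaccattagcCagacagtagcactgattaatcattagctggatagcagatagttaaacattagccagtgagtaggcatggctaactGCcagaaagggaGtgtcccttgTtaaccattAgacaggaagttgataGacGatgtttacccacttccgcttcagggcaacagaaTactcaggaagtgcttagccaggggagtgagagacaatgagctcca

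Akr1c19 and Akr1c18 are shown beside them because they lie in the same cluster and their signals behaved differently, those of Akr1c19 being low throughout. Akr1c19 lies at chr13:4233490-4233789 on the plus strand and Akr1c18 at chr13:4150597-4150896 on the minus strand. Capitals mark the motif CATTAG, which was noticed in these sequences and then counted.
Akr1c19: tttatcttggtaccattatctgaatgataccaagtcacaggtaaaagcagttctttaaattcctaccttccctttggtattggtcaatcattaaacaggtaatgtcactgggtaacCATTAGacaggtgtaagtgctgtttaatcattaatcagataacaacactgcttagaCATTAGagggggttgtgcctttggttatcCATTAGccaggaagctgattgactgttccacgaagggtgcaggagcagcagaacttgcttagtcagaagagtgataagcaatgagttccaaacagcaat
Akr1c18: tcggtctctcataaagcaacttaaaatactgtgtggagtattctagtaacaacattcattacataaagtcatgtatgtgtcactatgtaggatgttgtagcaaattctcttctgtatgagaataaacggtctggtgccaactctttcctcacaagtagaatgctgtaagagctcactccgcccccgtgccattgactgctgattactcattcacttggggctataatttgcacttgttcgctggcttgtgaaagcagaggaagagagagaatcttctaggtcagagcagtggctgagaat

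A promoter was found for 7 members, and Akr1c20 was not among them. Over the 21 pairs, the next most alike windows after Akr1c12 and Akr1c13 were those of Akr1c13 and Akr1c19 (61.0% of aligned columns identical) and of Akr1c12 and Akr1c19 (59.1%). The remaining pairs lay between 48.9% and 54.5%, with Akr1c12 and Akr1c18 at 49.8%. CATTAG, searched on both strands, occurred 5 times in the Akr1c13 window, 4 times in that of Akr1c12, 3 times in that of Akr1c19, once each in those of Akr1c6 and Akr1c21, and not in those of Akr1c14 and Akr1c18. Of the 32851 RefSeq promoters 7.36% held this motif at all and 0.0274% held it 3 or more times. The motif was picked from these windows, and the windows with the most copies are also the most alike in sequence. The contrast with these shares is therefore a description and no result about the family.

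The other motifs were counted in the same 7 windows. CpG dinucleotides numbered 2 in the windows of Akr1c12, Akr1c13 and Akr1c14, 5 in that of Akr1c18, 1 in those of Akr1c19 and Akr1c21 and 0 in that of Akr1c6, against a median of 7 over all promoters. TATAAA was found only in the Akr1c6 window (13.6% of all promoters hold it), and the antioxidant response element core TGACNNNGC only in that of Akr1c19 (12.4%), both counted on either strand. The AP-1 site TGANTCA was in none of the 7 (7.81% of all). For TATAAA, TGACNNNGC and TGANTCA, counts of 1 or 0 in 7 windows are near these shares and are no result about the family. These counts are properties of the printed windows and were not set against any measured binding.

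In IFE cells without G9a, Akr1c12 and Akr1c13 rose several-fold on every array, and the other 5 measured members did not pass the test. Akr1c12 read 8.62, 8.49, 8.70 and 8.88 on its probe set 1450455_PM_s_at in IFE cKO replicates 1 to 4, against 5.62, 5.45 and 5.32 in IFE WT replicates 1 to 3. Each cKO array lay above each WT array, with a gap of 2.87 between the lowest cKO and the highest WT value. The means were 8.67 ± 0.16 in cKO cells (SD, n = 4) and 5.46 ± 0.15 in WT cells (SD, n = 3), which differed by 3.21 on the log2 scale (SE 0.11, limma adjusted p = 4.49e-08) or 9.25 times the signal. This was the third largest rise among all probe sets.

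The other Akr1c12 probe set, 1422000_PM_at, moved the same way with a smaller change. Its signals were 8.05, 7.71, 7.87 and 8.04 in IFE cKO cells, against 6.32, 6.21 and 6.24 in IFE WT cells. The groups were again apart, by 1.38 at the nearest arrays. The groups differed by 1.66 on the log2 scale (SE 0.11, limma adjusted p = 9.93e-06), or 3.15 times the signal, which ranked 26 among all rises. The 2 probe sets cite the same transcript record, and the first carries the suffix that the manufacturer gives to probes shared by several transcripts. Which transcripts either one reads was not tested, so the size of the Akr1c12 change has 2 estimates whose intervals (2.97 to 3.45 and 1.42 to 1.89) do not meet.

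Akr1c13 signals were 7.86, 8.01, 8.19 and 8.21 in IFE cKO cells, against 5.75, 5.69 and 5.59 in IFE WT cells. No value of one group fell inside the range of the other. Its mean was 8.07 ± 0.16 in cKO cells (SD, n = 4) and 5.67 ± 0.08 in WT cells (SD, n = 3), which differed by 2.39 on the log2 scale (SE 0.11, limma adjusted p = 5.83e-07) or 5.25 times the signal, the twelfth largest rise. Because the sequences of Akr1c12 and Akr1c13 are close, a part of the signal of each probe set may come from the other transcript, and this was not tested.

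In total 3 of the 9 Akr1c probe sets passed an adjusted p of 0.05 in IFE, all of them higher in cKO cells. Over all 45141 probe sets 0.383% passed in either direction with 0.264% higher and 0.12% lower. In 3 of the 9 the IFE groups did not overlap with cKO higher, and 4.98% of all probe sets behaved so. The median difference over all probe sets was -0.01. The 5 members outside Akr1c12 and Akr1c13 comprise Akr1c18, whose arrays were widely spread, and 4 genes with low signals, and both sets are described below.

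**Figure D1:**
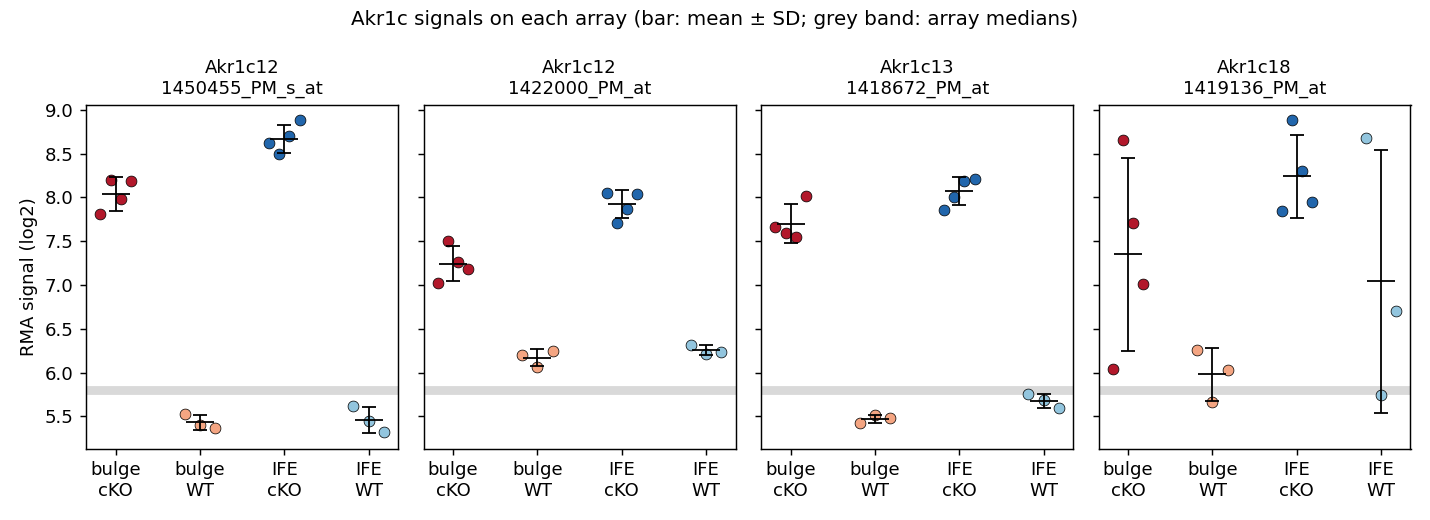
Log2 RMA signal on each array for the 4 Akr1c probe sets with a range over 1 (y axis), by group (x axis). Points are arrays, bars are the mean and SD, and the grey band spans the array medians. The cKO arrays of both Akr1c12 probe sets and of Akr1c13 lie above all WT arrays of the same compartment, while the Akr1c18 groups overlap.

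In bulge cells the same members stood highest, in the comparison that drew attention to them. Akr1c12 read 7.81, 8.20, 7.98 and 8.19 on 1450455_PM_s_at in bulge cKO replicates 1 to 4, against 5.53, 5.40 and 5.37 in bulge WT replicates 1 to 3. It read 7.02, 7.50, 7.26 and 7.18 on 1422000_PM_at in bulge cKO cells, against 6.20, 6.06 and 6.25 in bulge WT cells. All cKO arrays lay above all WT arrays on both. The log2 differences were 2.61 (SE 0.11) and 1.07 (SE 0.11), or 6.1 and 2.1 times the signal.

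Akr1c13 read 7.66, 7.59, 7.55 and 8.02 in bulge cKO cells, against 5.42, 5.51 and 5.48 in bulge WT cells. The cKO arrays were all above the WT arrays here too, and the log2 difference was 2.23 (SE 0.11), or 4.69 times the signal. In this comparison 3.65% of all probe sets passed the adjusted threshold, 1.61% higher and 2.03% lower, 24.7% had an unadjusted p under 0.05, and in 9.36% the groups did not overlap with cKO higher. Without bulge cKO replicates 2 and 3 the differences were 2.56 and 0.93 for the 2 Akr1c12 probe sets and 2.36 for Akr1c13. Bulge samples and IFE samples are bulk RNA, in which more cells of a type and more RNA per cell cannot be told apart.

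Set side by side, the cKO differences of Akr1c12 were larger in IFE than in bulge cells, by 0.60 (SE 0.16) on 1450455_PM_s_at and by 0.59 (SE 0.15) on 1422000_PM_at. Those of Akr1c13 were nearly equal, with 0.16 (SE 0.16) between them. These contrasts hold the bulge values that chose the genes and were not tested. On both Akr1c12 probe sets every IFE cKO array lay above every bulge cKO array, and on that of Akr1c13 the cKO groups of the compartments overlapped. The order of the group means was the same for both genes: IFE cKO, then bulge cKO, then IFE WT and bulge WT. The last 2 did not differ beyond their spread for Akr1c12.

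**Figure D2:**
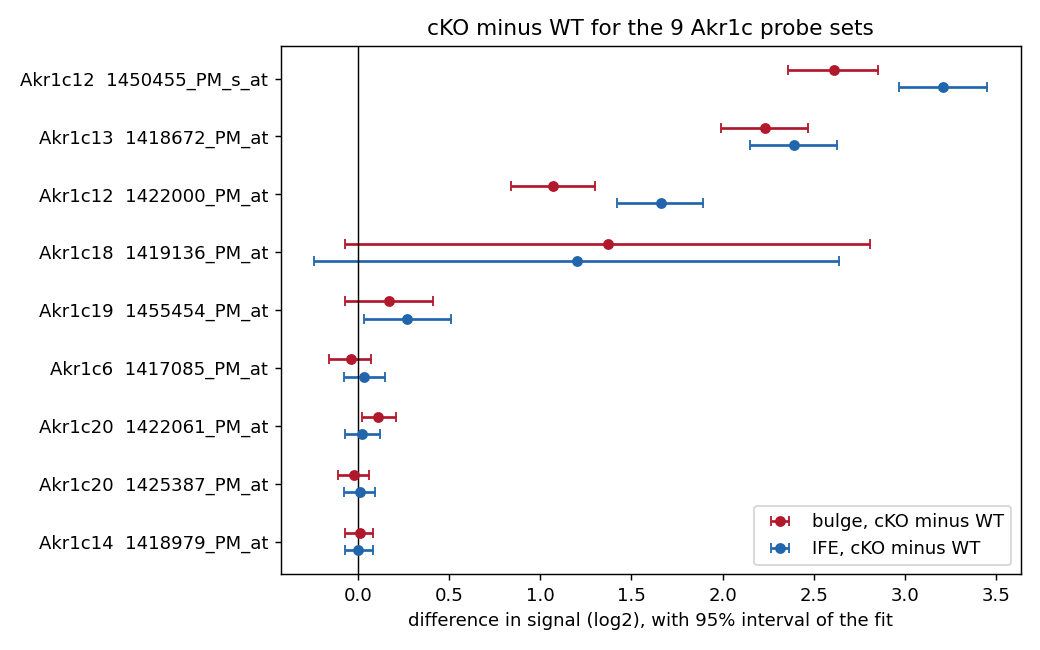
Difference in log2 signal between cKO and WT (x axis) for the 9 Akr1c probe sets (y axis), with bulge above IFE in each row and the 95% interval of the fit as bars. The intervals of Akr1c12 and Akr1c13 lie far to the right of 0 in both compartments, those of Akr1c18 are wide and include 0, and the rest lie close to 0.

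Between the compartments of WT mice the Akr1c genes showed no call, although this comparison changed much of the transcriptome. None of the 9 probe sets passed, against 34.9% of all probe sets (18.5% higher and 16.4% lower in bulge), and none had an unadjusted p under 0.05, against 43.7% of all. The comparison shares its bulge WT arrays with the one that chose the genes. Of the 9, 5 read low throughout (3.59 to 5.05) and Akr1c18 was widely spread, so the count of 0 is no result about the family. Akr1c12 on 1450455_PM_s_at averaged 5.43 ± 0.09 in bulge and 5.46 ± 0.15 in IFE cells (SD, n = 3 each), with a difference of -0.03 and a 95% interval of -0.29 to 0.23 (limma adjusted p = 0.876). On 1422000_PM_at the difference was -0.09 (interval -0.34 to 0.16, limma adjusted p = 0.606). Akr1c13 averaged 5.47 ± 0.05 in bulge and 5.67 ± 0.08 in IFE cells (SD, n = 3 each), and although these arrays did not overlap, as in 47.1% of all probe sets in either direction, the difference of -0.20 (interval -0.46 to 0.06) did not pass (limma adjusted p = 0.216). In WT cells both Akr1c12 on 1450455_PM_s_at and Akr1c13 read below the array median on all 6 arrays. Akr1c12 on 1422000_PM_at read above it on all 6, with 6.06 to 6.25 in bulge and 6.21 to 6.32 in IFE cells.

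Akr1c18, the progesterone-inactivating member, had the widest spread within groups. It read 7.84, 8.88, 8.30 and 7.95 in IFE cKO replicates 1 to 4, against 8.68, 5.74 and 6.70 in IFE WT replicates 1 to 3. The highest WT array lay above 3 of the 4 cKO arrays. The log2 difference of 1.20 (SE 0.66, interval -0.24 to 2.64) did not pass (limma adjusted p = 0.565). It was 2.02 without IFE WT replicate 1 and 0.56 without IFE WT replicate 2, and neither passed (limma adjusted p = 0.322 and 0.872).

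In bulge cells Akr1c18 read 6.04, 8.65, 7.71 and 7.01 in cKO replicates 1 to 4, against 6.26, 5.66 and 6.03 in WT replicates 1 to 3. Replicate 1 of the cKO group lay inside the WT range and the other 3 above it. The difference was 1.37 (SE 0.66), and 0.55 without cKO replicates 2 and 3. Between bulge and IFE cells of WT mice it was -1.06 (SE 0.71, limma adjusted p = 0.28), and -0.24 without IFE WT replicate 1.

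Akr1c18 signals moved with the markers of epidermal differentiation from array to array. The mean signal of the 18 measured differentiation markers was 7.77, 9.24, 9.03 and 8.58 on bulge cKO arrays, against 7.63, 7.26 and 7.61 on bulge WT arrays. It was 9.09, 9.43, 9.36 and 9.22 on IFE cKO arrays, against 9.20, 8.63 and 8.76 on IFE WT arrays. In each of the 4 groups the array with the highest differentiation mean also had the highest Akr1c18 signal. The same held for the means of 12 sebaceous and of 10 fibroblast markers, so this pattern was not particular to differentiation markers. The sebaceous means were 7.02 to 7.81 on bulge cKO arrays against 6.95 to 7.10 on bulge WT arrays, and 7.25 to 7.71 on IFE cKO arrays against 6.86 to 7.24 on IFE WT arrays. The fibroblast means were 5.93 to 6.37 on bulge cKO arrays against 5.80 to 6.01 on bulge WT arrays, and 5.59 to 6.0 on IFE cKO arrays against 5.46 to 5.70 on IFE WT arrays. The part of these markers in the Akr1c18 values was not tested.

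For markers of antigen presenting cells the array with the highest mean had the highest Akr1c18 signal in 3 of the 4 groups, bulge WT being the exception. The 11 measured Langerhans and antigen presenting cell markers averaged 6.79 to 7.26 on bulge cKO arrays against 6.45 to 6.60 on bulge WT arrays, and 6.72 to 7.06 on IFE cKO arrays against 6.47 to 6.86 on IFE WT arrays. Of these markers 4 rose in bulge cKO cells, the MHC class II genes H2-Ab1 (2.35, limma adjusted p = 0.0129), H2-Aa and H2-Eb1 and their chaperone gene Cd74, where 1.61% of all probe sets rose. None of the 4 passed without bulge WT replicate 1 or without bulge WT replicate 2. In IFE 0 passed and 3 had an unadjusted p under 0.05, against 0.383% and 10.7% of all probe sets. Among differentiation markers 4 of 18 rose in bulge cKO cells, against the same 1.61%: the lipid transporter gene Abca12 (2.41, limma adjusted p = 0.00225), the cornified envelope gene Sprr1a, the protease gene Casp14 and the transcription factor gene Ovol1. Abca12 passed with any single array left out, whereas over the 14 arrays left out in turn Sprr1a passed in 6 cases, Casp14 in 3 and Ovol1 in 2. None of these 3 passed without bulge cKO replicate 2 or 3 or without bulge WT replicate 1 or 2. In IFE 0 of 18 passed and 4 had an unadjusted p under 0.05. All 18 bulge stem cell markers had lower means in bulge cKO than in bulge WT cells (-1.81 to -0.13). None of them passed, and 9 had an unadjusted p under 0.05, against 24.7% of all probe sets. Whether the mix of cells differed between these groups was not tested.

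Akr1c12 and Akr1c13 were high on all cKO arrays, whose differentiation means ran from 7.77 to 9.43. Those of WT arrays ran from 7.26 to 9.20, so the low end held only WT arrays and the high end only cKO arrays. T cell marker means (10 genes) were 5.72 to 6.38 on bulge cKO arrays against 5.55 to 5.71 on bulge WT arrays. On IFE cKO arrays they were 6.14 to 6.4 against 5.86 to 6.06 on IFE WT arrays. Basal keratinocyte marker means (9 genes) were 10.89 to 11.09 on bulge cKO arrays against 11.13 to 11.24 on bulge WT arrays. On IFE cKO arrays they were 10.87 to 11.05 against 11.06 to 11.14 on IFE WT arrays. On both lists cKO and WT arrays of a compartment did not overlap. The part of these markers in the Akr1c12 and Akr1c13 values was not tested. Bulge cKO replicate 1 had a differentiation mean of 7.77, close to the 7.26 to 7.63 of bulge WT arrays, and read 7.81 for Akr1c12 on 1450455_PM_s_at and 7.66 for Akr1c13. IFE WT replicate 1 had a differentiation mean of 9.20, inside the range of IFE cKO arrays, and read 5.62 and 5.75 for the same probe sets. Without cKO replicates 2 and 3 of both compartments the IFE differences were 3.29 and 1.78 for the 2 Akr1c12 probe sets and 2.36 for Akr1c13.

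**Figure D3:**
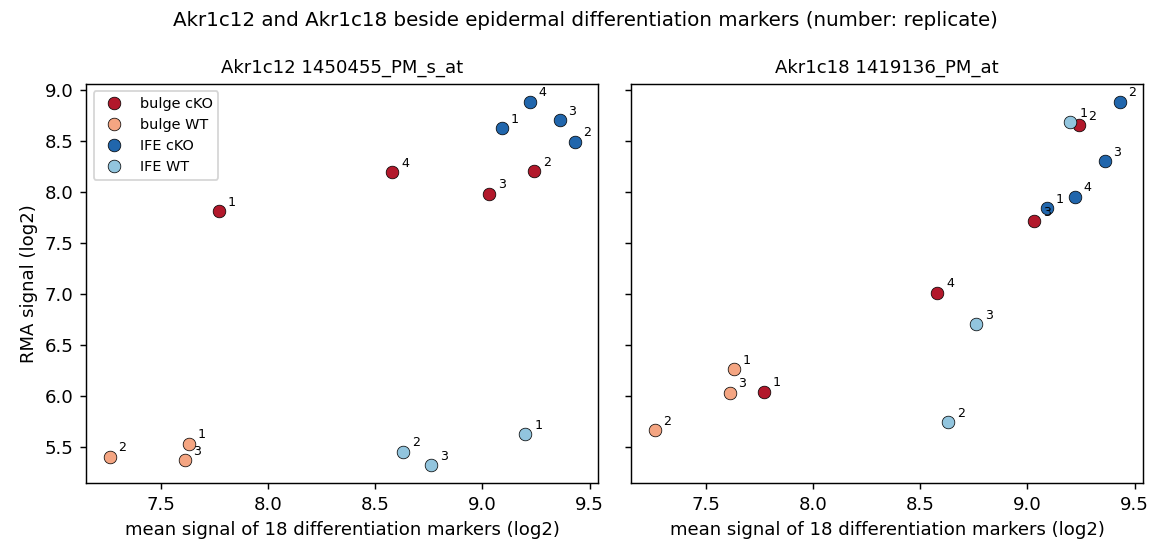
Log2 signal of Akr1c12 on 1450455_PM_s_at and of Akr1c18 (y axes) against the mean log2 signal of 18 epidermal differentiation markers (x axis) on the 14 arrays, coloured by group and numbered by replicate. Akr1c12 is higher on every cKO array than on every WT array, and Akr1c18 climbs with the marker mean. The lowest marker means are all of WT arrays and the highest all of cKO arrays.

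The remaining 5 probe sets, for 4 genes, read low throughout. Akr1c14 lay between 3.59 and 3.69 over the 14 arrays, Akr1c6 between 4.51 and 4.72, Akr1c19 between 3.88 and 4.49, and Akr1c20 between 4.75 and 5.05 on 1422061_PM_at and between 3.90 and 4.08 on 1425387_PM_at. All were below the array median on all arrays. Whether any of them stood above the background of the array was not tested, so a change that stayed below detection would not be seen.

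Akr1c19, which lies between Akr1c13 and Akr1c12, had the largest difference among the low members. It read 4.27, 4.49, 4.35 and 4.20 in IFE cKO cells, against 4.24, 3.88 and 4.06 in IFE WT cells. The groups overlapped at one WT array, and the difference of 0.27 (interval 0.03 to 0.51) did not pass (limma adjusted p = 0.412). In bulge cells it was 0.17 (SE 0.11). Akr1c6, Akr1c14 and both Akr1c20 probe sets had IFE differences between 0.00 and 0.03, and none passed. In bulge cells Akr1c20 on 1422061_PM_at read 4.86 to 5.05 on cKO arrays against 4.81 to 4.85 on WT arrays, groups that did not overlap, with a gap of 0.01 and a difference of 0.11 (interval 0.02 to 0.21). Akr1c6, Akr1c14 and the other Akr1c20 probe set had bulge differences between -0.04 and 0.01.

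**Figure D4:**
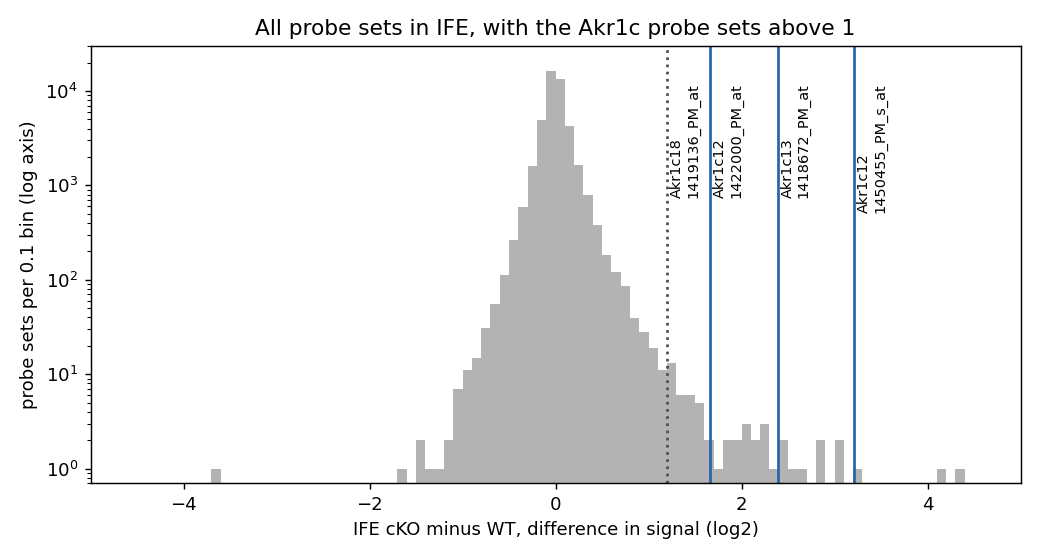
Number of probe sets per 0.1 of IFE difference, cKO minus WT (x axis, log2; y axis on a log scale), over all 45141 probe sets. Lines mark the 4 Akr1c probe sets above 1, solid where the adjusted p passed and dotted for Akr1c18. Those of Akr1c12 and Akr1c13 fall in the sparse right tail.

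None of the measured genes that flank the cluster passed in IFE, where 0.383% of all probe sets did, so a count of 0 among so few genes is near the background. In the RefSeq order on chromosome 13 the members run Akr1c14, Akr1c18, Akr1c13, Akr1c19, Akr1c12, Akr1c6, Akr1c20 and Akr1c21, and no other annotated gene within this stretch had a probe set. Of the 5 nearest genes with a probe set on each side, 0 of 10 passed in IFE. The calmodulin-like gene Calml3 had 8.29 in IFE cKO cells against 6.70 in IFE WT cells. This difference of 1.59 (SE 0.40, interval 0.73 to 2.46, limma adjusted p = 0.145) was larger than that of Akr1c18. Calml3 is on the list of differentiation markers, but in WT mice it was higher in bulge cells (10.76) than in IFE cells (4.06, limma adjusted p = 3.44e-05). Akr1e1, an aldo-keto reductase of another branch at the far edge of the cluster, had 9.39 in IFE cKO cells against 9.11 in IFE WT cells (0.28, limma adjusted p = 0.624). Klf6, a zinc finger transcription factor, had 0.01.

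In bulge cells 1 of the 10 neighbours rose, against 1.61% of all probe sets, and 1 gene in 10 is too few to set against that share. It was the calmodulin gene Calm4, known from differentiating skin, with 9.30 in bulge cKO cells against 7.60 in bulge WT cells (1.71, SE 0.41, limma adjusted p = 0.0426). This call passed with 2 of the 14 arrays left out in turn, bulge cKO replicates 1 and 4, and with none of the other 12 (difference 1.43 to 2.15, limma adjusted p up to 0.149). The mitochondrial peptidase gene Pitrm1 had -0.30 in bulge and -0.52 (interval -0.88 to -0.16) in IFE, and neither passed (limma adjusted p = 0.284 and 0.26). Within the cluster the differences in signal did not follow the order: Akr1c19, at 0.27 in IFE, lies between the 2 genes at 2.39 and 3.21. Akr1c19 read 3.88 to 4.49, below the median of every array, so its small difference does not show that the gene was unchanged.

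**Figure D5:**
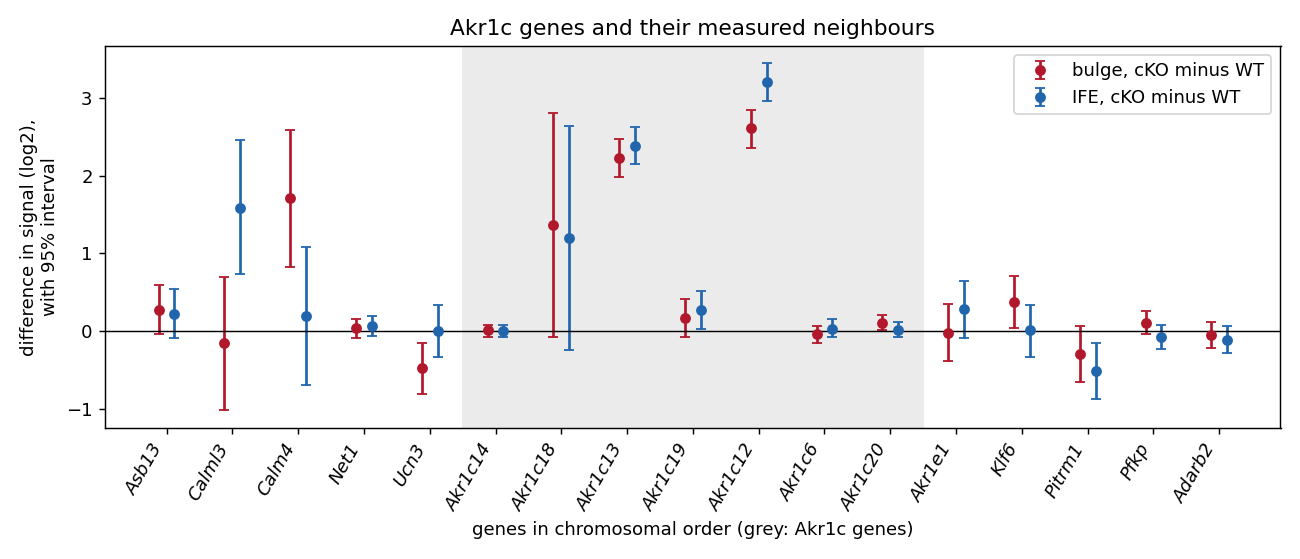
Difference in log2 signal between cKO and WT (y axis) for the measured Akr1c genes (grey) and 5 measured neighbours on each side (x axis, in chromosomal order, not to scale), bulge left and IFE right, with the 95% interval of the fit. Each gene is shown by its probe set with the highest mean. Akr1c13 and Akr1c12 stand out in both compartments with Akr1c19, which read below the array median on all arrays, near 0 between them.

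Lists of other aldo-keto reductases and of the pathways in which Akr1c enzymes act held no call in IFE. With 0.383% of all probe sets called and 10.7% at an unadjusted p under 0.05, 0 calls in lists of this size is near the background and is no result about them. Of 10 measured aldo-keto reductases outside the family 0 passed, with a median difference of 0.02 and 1 unadjusted p under 0.05, that of Akr1b10 (0.13, limma adjusted p = 0.383). Of 24 genes of steroid metabolism and steroid receptors 0 passed and 0 had an unadjusted p under 0.05 (median 0.02). Of 21 prostaglandin genes 0 passed and 3 had an unadjusted p under 0.05 (median -0.04), and the cyclooxygenase gene Ptgs2 had -0.85 (limma adjusted p = 0.475). Of 19 retinoid genes 0 passed and 2 had an unadjusted p under 0.05 (median 0.05), with the alcohol dehydrogenase gene Adh7 at 0.38 (limma adjusted p = 0.216).

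Targets of Nrf2, the transcription factor of the oxidative stress response that is known to raise several aldo-keto reductases, likewise held no call. Of 27 measured targets 0 passed in IFE and 0 had an unadjusted p under 0.05, with a median of -0.02. The glutathione transferase gene Gsta4 averaged 8.12 in IFE cKO cells and 9.02 in IFE WT cells (-0.90, limma adjusted p = 0.558), and Gclm, a subunit of the enzyme that starts glutathione synthesis, averaged 7.33 in IFE cKO cells and 7.05 in IFE WT cells (0.28, limma adjusted p = 0.647).

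In bulge cells a few genes of these lists passed, as did 3.65% of all probe sets. The prostaglandin D synthase gene Hpgds rose (7.84 in bulge cKO cells against 6.23 in bulge WT cells, limma adjusted p = 0.0378), the receptor gene Ptger3 rose slightly (0.26, limma adjusted p = 0.0385), and Hpgd, which inactivates prostaglandins, fell (5.22 in bulge cKO cells against 6.55 in bulge WT cells, limma adjusted p = 0.0236), so that 3 of 21 passed. The glucocorticoid receptor gene Nr3c1 fell (-0.49, limma adjusted p = 0.0177) and the progesterone receptor gene Pgr, with signals below the array medians, rose (0.16, limma adjusted p = 0.039), 2 of 24. Of 10 other aldo-keto reductases, 19 retinoid genes and 27 Nrf2 targets 0 passed by limma, with 3, 6 and 7 unadjusted p under 0.05, near the 24.7% of all probe sets. With array weights, under which 42.3% of all probe sets passed, 3, 9 and 18 of them did, and at most 2, 4 and 5 under any other alternative tried. The Nrf2 target Nqo1 had 6.34 in bulge cKO cells against 6.86 in bulge WT cells (-0.53, limma adjusted p = 0.0589). These calls rested on few arrays: with each of the 14 arrays left out in turn, Nr3c1 passed in 11 cases, Hpgd in 10, Hpgds in 7, Ptger3 in 5 and Pgr in 2, with the direction kept throughout. None of the 5 passed without bulge cKO replicate 3 or without bulge WT replicate 1 or 2.

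Over the 14 arrays the Akr1c12 and Akr1c13 signals went together. Pearson's r was 0.992 between 1450455_PM_s_at and Akr1c13, 0.972 between the 2 Akr1c12 probe sets, and 0.947 between 1422000_PM_at and Akr1c13. Akr1c18 had r of 0.60 to 0.69 with these 3 probe sets. The arrays share 4 groups, and a difference between groups alone gives high values, so these are descriptions.

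By the same measure the genes outside the family most like Akr1c12 on 1450455_PM_s_at were Trim30d (r = 0.976), Tspan8 (0.969), Rad51b (0.961), Cd5 (0.954) and Lrp11 (0.953). Tspan8 encodes a tetraspanin of gut and other epithelia, and averaged 8.94 in bulge cKO cells against 6.78 in bulge WT cells and 9.29 in IFE cKO cells against 6.25 in IFE WT cells. The nearest to Akr1c13 were Cd5 (0.967), Trim30d (0.959), Tspan8 (0.951), the inflammatory caspase gene Casp1 (0.951) and Gpa33 (0.95), which encodes the A33 antigen of intestinal epithelium. For 1422000_PM_at they were Rad51b (0.987), Adgrv1 (0.981), Iqca (0.979), the alpha-fetoprotein gene Afp (0.974) and Trim30d (0.968). All of these had a higher mean in cKO than in WT cells of both compartments. Their choice by correlation with probe sets high in cKO cells largely fixed this, so it is no separate result. Iqca read at most 4.82, below the median of every array.

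Akr1c18 was most like a different set of genes. These were the vasopressin receptor gene Avpr1a (r = 0.954), H2-Ab1 on a probe set of a type that can cross-hybridise (0.938), Hsbp1l1 (0.932), Hmgn1 (0.929) and the transcription factor gene Gata6 (0.927), again over 14 arrays. Avpr1a, Hsbp1l1 and Hmgn1 read at most 5.38, 5.1 and 5.16, below the median of every array. Gata6 averaged 6.98 in bulge cKO cells against 6.47 in bulge WT cells, and 7.28 in IFE cKO cells against 7.07 in IFE WT cells. Akr1c18 shared none of its 5 nearest genes with Akr1c12 or Akr1c13, whereas the 3 lists of those 2 genes had Trim30d in common. The probe sets behind those 3 lists had r of 0.947 to 0.992 with each other, so an overlap of the lists is no separate result.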

How the data were processed

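Per the labels, TRizol RNA of mouse bulge and IFE cells was converted to cDNA, amplified and biotinylated for Affymetrix arrays. The deposited log2 signals per probe set were made by the authors with RMA, per the submitters' processing notes; its version and settings are not stated in the material used here. RMA makes the distributions of all arrays alike, and the number of arrays limits the precision. All 45141 probe sets on 14 arrays entered a model with a mean per group in limma 3.58.1 under R 4.3.3 (lmFit and eBayes, 10 residual degrees of freedom), with two-sided tests adjusted by Benjamini and Hochberg over all probe sets and a threshold of 0.05. No dim probe sets were removed. Where several probe sets named a gene of a list or a neighbour, the one with the highest mean was used. Of the probe sets 28898 had 1 gene symbol, 551 several and 15692 none. Among those with 1 symbol, 28689 had an Entrez identifier found in RefSeq (GRCm38.p6) and took the symbol given there.

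The members, the gene lists and the tests were chosen with earlier results of these data known. Named were all member and Ehmt2 probe sets, 5 measured neighbours on each side, up to 4 genes per list and comparison with the smallest p-values, and the 5 genes most correlated with each member probe set of range over 1; Calml3 and Klf6 are neighbours, and CATTAG was chosen after the sequences were read. Promoters were aligned in pairs with Biopython 1.88. Probe sequences were not used here. The model was tested on simulated data. The alternatives were other normalizations, a filter on dim probe sets, gene level values, a variance trend, array weights, only the compared groups, other thresholds, a replicate block and left-out arrays.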

Additional observations from a re-analysis of the deposited data

How the results depend on the processing

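The Akr1c calls depended little on the processing. Under every alternative at the level of probe sets 3 Akr1c probe sets, of Akr1c12 and Akr1c13, passed in IFE and 0 between the compartments of WT mice. Between those compartments Akr1c13 came close, with differences of -0.24 to -0.16. Its limma adjusted p ran from 0.05 with only the compared groups to 0.405 without IFE WT replicate 1. Over 27 alternatives the IFE difference of Akr1c12 lay between 2.43 and 3.29 on 1450455_PM_s_at (limma adjusted p at most 8.37e-05) and between 1.6 and 3.21 on 1422000_PM_at (at most 0.00118). The 2.43 and 3.21 come from using 1 value per gene, the 3.29 from leaving out arrays and the 1.6 from array weights. That of Akr1c13 lay between 2.32 and 2.46 (at most 0.000266). With single arrays left out the IFE ranges were 3.14 to 3.29, 1.61 to 1.72 and 2.35 to 2.46. In bulge cells they were 2.56 to 2.69, 0.98 to 1.14 and 2.12 to 2.28, while Akr1c12 had 2.61 by its probe set with the highest mean and 1.84 by the mean of its probe sets. The numbers of calls over all probe sets moved more. In IFE 173 passed in the model described, against 2639 with array weights, 99 with only the compared groups, 85 by gene with the highest probe set and 65 with a replicate block, and 83 (without IFE WT replicate 1) to 209 (without IFE cKO replicate 4) with single arrays left out. In bulge 1646 passed, against 19104 with array weights, 1022 without dim probe sets, 186 with only the compared groups and 1017 with the block, and 329 (without bulge WT replicate 1) to 5881 (without bulge cKO replicate 4). Calls also numbered 316 in IFE and 4821 in bulge at an adjusted p under 0.1, and 101 and 517 with at least a 1.5-fold change, which left 6992 of 15771 between the compartments. By gene there were 111 in IFE from the mean of probe sets, 656 and 810 in bulge by the highest and the mean, and 5998 and 6303 between the compartments. Without cKO replicates 2 and 3 of both compartments 82 passed in IFE and 185 in bulge, and without those of bulge alone 228 passed in bulge. Without dim probe sets 24389 were tested and 4.19% passed in bulge, against 3.65% of all probe sets in the model described. Fewer features were tested there and by gene, and changed thresholds alter counts by definition. Other causes were not tested. With each array centred on its median 33.7% of bulge calls and 42.4% of compartment calls were higher, against 44.2% and 53.0%. Replicate numbers recur in all groups, and whether same-numbered arrays share a mouse is not stated. The deviations of same-numbered arrays correlated from -0.603 to 0.237 over the pairs of groups compared, cKO with WT included. By these deviations, 2 of 3 bulge WT arrays and 0 of 4 bulge cKO arrays were most like the IFE array of their own number. This does not settle whether the arrays are paired. With replicate number as a block, Akr1c12 had 3.15 (limma adjusted p = 6.72e-06) and 1.64 (0.00113) and Akr1c13 2.32 (7.19e-06) in IFE.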

Other observations

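In the comparison of WT compartments, 34.9% of all probe sets passed, 18.5% higher and 16.4% lower in bulge cells, and the lists around Akr1c are given beside that share. Of 21 prostaglandin genes 4 were higher and 8 lower in bulge than in IFE cells. The prostaglandin E receptor gene Ptger4 averaged 5.63 ± 0.20 in bulge and 8.37 ± 0.23 in IFE cells (SD, n = 3 each; log2 difference -2.74, limma adjusted p = 4.88e-05), and the synthase genes Ptges and Hpgds had -1.72 and -2.58. Of 24 steroid genes 3 were higher and 5 lower, which is near the share of all probe sets, among them Nr3c1, the glucocorticoid receptor gene (1.15), Hsd17b11, a hydroxysteroid dehydrogenase gene (2.18), and the estrogen receptor gene Esr1 (-1.62). Of 10 other aldo-keto reductases 5 were higher and 1 lower, with Akr1e1 at 0.68 and Kcnab2, Akr1b10 and Akr7a5 at 0.26, 0.26 and 0.20. These 4 passed with any single array left out, and the other calls of this list did not. Some of the prostaglandin calls were also lost with single arrays left out.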
